A study of Mus musculus with 6 samples.

Results

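mmu-miR-31-5p and mmu-miR-31-3p, the 2 arms of 1 hairpin, and mmu-miR-345-5p, mmu-miR-350-3p, mmu-miR-187-3p and mmu-miR-374b-5p are 6 mature mouse miRNAs that were read in every hepatocyte vesicle library made after palmitic acid and in few or no reads without it. They were taken by name from a table of 1976 miRNAs and had been chosen by their low reads in untreated vesicles, so their difference between the groups is described here without a test. The material was RNA of vesicles, which the labels call exosomes, shed by primary hepatocytes of C57BL/6J wild-type mice. The PA group (3 libraries) came from hepatocytes exposed to 600 µM palmitic acid, the main saturated fatty acid of many diets, and the Control group (3 libraries) from hepatocytes at 0 µM. The series is titled for miR-30b-5p, which is not among the 6, and for endothelial dysfunction in steatosis of the liver. The labels do not tie libraries to animals or cultures, so the spread within a group may be technical.

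A miRNA is cut from a hairpin transcript by the enzymes Drosha and Dicer, and 1 or both arms of the hairpin are then kept in an Argonaute protein. The seed, bases 2 to 8 counted from the 5′ end, pairs with target transcripts, so miRNAs with the same seed can share targets. Cells export some miRNAs in vesicles, and in liver this route has been studied as a signal from hepatocytes to other cells.

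Of the 6 names, 5 matched a mature sequence in RefSeq (GRCm38.p6). These are shown with the seed in capitals, to let the seeds be compared, beside miR-374c-5p, which overlaps a member in sequence.
miR-31-5p: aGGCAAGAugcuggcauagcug
miR-31-3p: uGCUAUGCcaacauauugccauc
miR-345-5p: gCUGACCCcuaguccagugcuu
miR-350-3p: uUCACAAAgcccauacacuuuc
miR-374b-5p: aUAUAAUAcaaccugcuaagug
miR-374c-5p: aUAAUACAaccugcuaagug

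The 5 members shown have 5 different seeds, and no other measured miRNA with a RefSeq sequence (1677 of the 1976 rows) carries any of them. They are therefore not a seed family. Their GC content ran from 31.8% in miR-374b-5p, where 3 of the 161 tested miRNAs with a sequence lay lower, to 59.1% in miR-345-5p, where 137 lay lower. The median of those 161 was 45.5%, so the members shown lie on both sides of it.

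Their hairpins lie on separate chromosomes. Mir31 (GRCm38 chr4:88910557-88910662, minus strand) overlaps a non-coding exon of the lincRNA gene AL805899.1 over its full length of 106 bases in GENCODE. Both of its arms are members, and they are shown in capitals within the hairpin, the 5p arm first.
Mir31 hairpin: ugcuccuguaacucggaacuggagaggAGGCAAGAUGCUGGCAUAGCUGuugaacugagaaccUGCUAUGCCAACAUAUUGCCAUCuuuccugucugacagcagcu
Mir345 (chr12:108836973-108837068, plus strand) lies in the annotated span of Slc25a47, which encodes a mitochondrial carrier protein found mainly in liver, on the same strand, with 5 of its 96 bases in an exon. Mir350 (chr1:176772325-176772423, minus strand) lies in an intron of Cep170, which encodes a centrosomal protein. Mir374b (chrX:103573060-103573154, minus strand) lies in an intron of Ftx, a non-coding gene of the X-inactivation centre.

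The deposited values are log2(adjusted count + 1), and the reads behind them were recovered as set out under processing. Recovered totals were 799040, 761727 and 613443 reads in PA replicates 1, 2 and 3, and 95278, 657863 and 252395 in Control replicates 1, 2 and 3. They are approximate, since rounding of the deposited values leaves the most abundant miRNAs unresolved to the single read. The liver miRNA miR-122-5p, with miR-122b-3p from the same locus, took 11.7% to 15.3% of PA reads and 69.2% to 87.7% of Control reads. Outside miR-122-5p and miR-122b-3p the PA libraries held 534401 to 676819 reads and the Control libraries 29358 to 80798. Fewer Control reads were thus left for every other miRNA, although Control replicate 2 held more reads in all than PA replicate 3. The opposite arms, miR-122-3p and miR-122b-5p, stayed in that count. Levels are therefore given in RPM (reads in every 1000000) of all reads and, where said so, in RPM outside miR-122. Fewer vesicles that carry a miRNA and fewer copies in each vesicle cannot be told apart in these bulk libraries.

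Control replicate 1, the shallowest library, also stood apart from the other Control libraries in markers of other cell types. Its summed erythroid miRNAs reached 5699 RPM, against 38.0 and 218 RPM in Control replicates 2 and 3, and its neuronal ones 2750 RPM, against 0 and 365 RPM. Striated muscle, stellate and immune miRNAs were also highest there among the Control libraries, at 2362, 2152 and 1616 RPM. Results that rest on this library are given below with and without it, and the part of those cell types was not tested.

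The 6 miRNAs together held 719, 1145 and 524 reads in PA replicates 1, 2 and 3, and 3, 0 and 0 reads in Control replicates 1, 2 and 3. As shares of all reads that was 0.0900%, 0.150% and 0.0854% with PA and 0.00315%, 0% and 0% in Control. They were thus a small part of the PA vesicle miRNAs, and all 3 of their Control reads came from replicate 1, so without that library no Control read of any of the 6 was left.

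miR-31-5p, the arm of a hairpin much studied in epithelial tissue and in cancers, had deposited log2 values of 6.44, 6.61 and 6.11 in PA replicates 1, 2 and 3, against 2.94, 0.378 and 0.268 in Control replicates 1, 2 and 3. These stood for 176, 276 and 115 reads with PA and 2, 0 and 0 reads in Control. The groups did not overlap, and 1 Control library held the 2 reads. For each of the 6 miRNAs such separation follows from their choice by few Control reads and from a filter passed through PA. The share of all tested miRNAs with separated groups is not given here, so nothing is read from it. In RPM miR-31-5p averaged 257 ± 93.0 with PA and 7.0 ± 12.1 in Control (SD, n = 3 each).

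miR-31-3p, from the opposite arm, had deposited log2 values of 6.07, 6.34 and 5.37 in PA replicates 1, 2 and 3, against 0.443, 0.372 and 0.264 in Control. It had 135, 228 and 68 reads with PA and 0 reads in each Control library. All PA libraries lay above all Control libraries, and no Control read of this arm was recovered. It averaged 193 ± 96.5 RPM with PA (SD, n = 3), while a floor of 3 reads would be 31.5, 4.56 and 11.9 RPM in Control replicates 1, 2 and 3, and the 95% exact Poisson upper limits of 0 reads are 38.7, 5.61 and 14.6 RPM.

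miR-374b-5p, the most abundant of the 6 with PA and the least variable between PA libraries, had deposited log2 values of 6.90, 6.82 and 7.01 with PA, against 2.19, 0.380 and 0.268 in Control replicates 1, 2 and 3. The reads were 243, 321 and 215 with PA and 1, 0 and 0 in Control. Again the groups did not overlap, and the single Control read lay in replicate 1. It averaged 359 ± 59.1 RPM with PA and 3.50 ± 6.06 RPM in Control (SD, n = 3 each).

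miR-350-3p, from the Cep170 intron, had deposited log2 values of 5.10, 5.79 and 4.88 with PA, against 0.427, 0.360 and 0.257 in Control. Its reads were 68, 154 and 48 with PA, and none was recovered from Control. PA replicate 2 stood well above the other 2 PA libraries, so its mean of 122 ± 69.7 RPM (SD, n = 3) has the widest relative spread of the 6, a coefficient of variation of 57.2%.

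miR-345-5p, encoded within the span of the liver carrier gene Slc25a47, had deposited log2 values of 4.95, 5.15 and 4.28 with PA, against 0.416, 0.352 and 0.251 in Control. It had 61, 98 and 31 reads with PA and 0 in each Control library, and averaged 85.2 ± 39.8 RPM with PA (SD, n = 3). The groups were separated, although PA replicate 3 held only 31 reads.

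miR-187-3p, the least abundant, had deposited log2 values of 4.21, 4.63 and 4.86 with PA, against 0.422, 0.356 and 0.254 in Control. It had 36, 68 and 47 reads with PA and none in Control, and averaged 70.3 ± 22.8 RPM with PA (SD, n = 3). The groups were separated here too, with 36 reads in the lowest PA library.

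**Figure D1:**
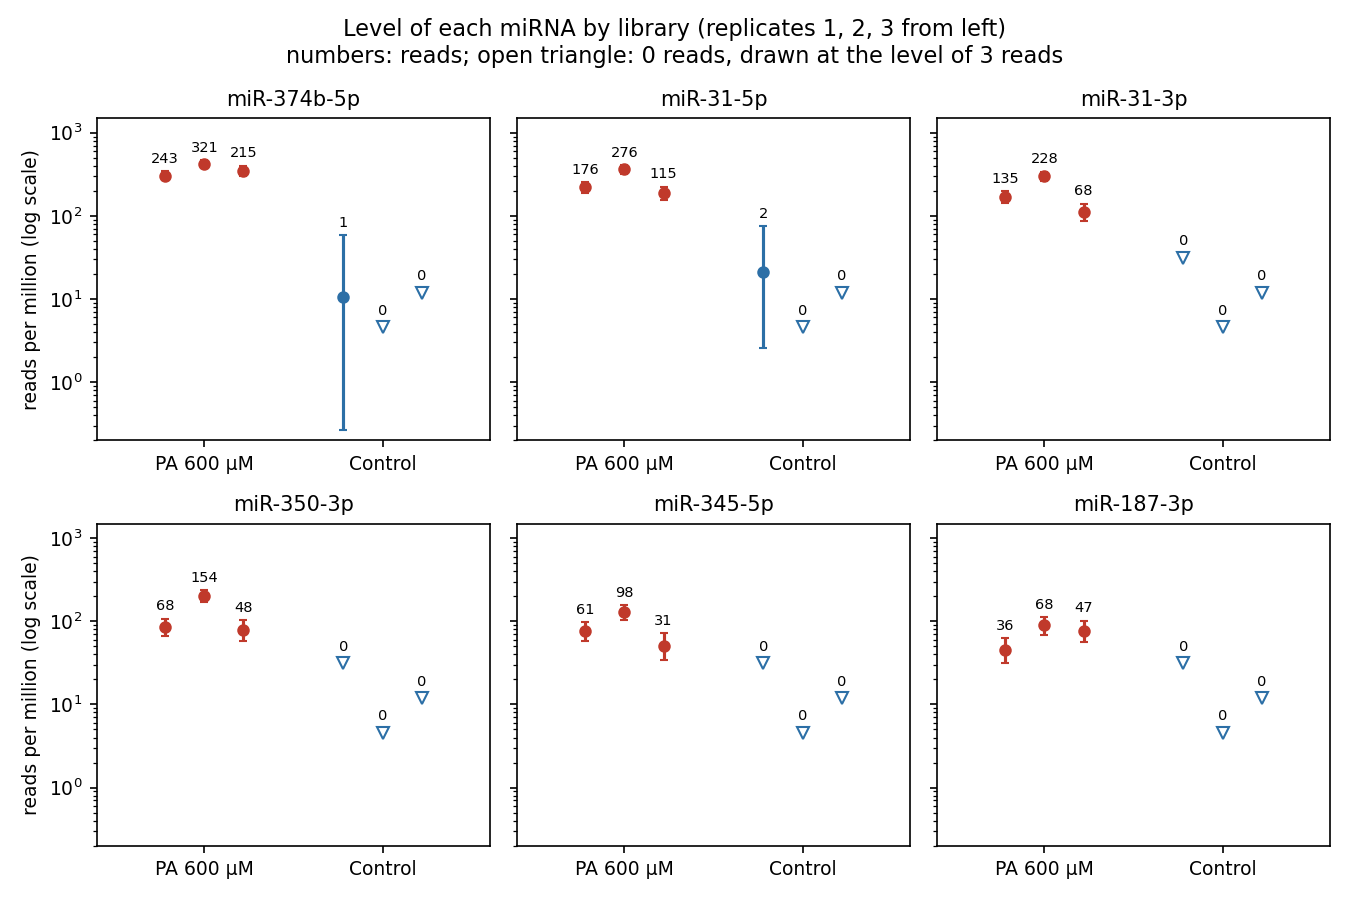
RPM of all recovered reads (log axis) of each miRNA in the 3 PA libraries (red) and the 3 Control libraries (blue), with 95% exact Poisson intervals and the read number above each point. Open triangles mark libraries with 0 reads, drawn at the level of 3 reads, and every PA point lies above every Control point or triangle of its miRNA. That separation follows from the choice of the members.

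Control libraries without a read of these miRNAs do not stand at 0 in the deposited table. The 16 Control values of these miRNAs with 0 reads ran from 0.251 to 0.443 on the log2 scale, while 1 read of miR-374b-5p in Control replicate 1 stood at 2.19 and 2 reads of miR-31-5p there at 2.94. These small values come from the library adjustment, so their spread is not one between libraries. The difference of mean log2 values, PA minus Control, was 5.97 (SE 0.77) for miR-374b-5p, 5.57 (SE 0.45) for miR-31-3p and 5.19 (SE 0.86) for miR-31-5p. It was 4.91 (SE 0.36) for miR-350-3p, 4.45 (SE 0.32) for miR-345-5p and 4.22 (SE 0.27) for miR-187-3p. For the 4 miRNAs without a Control read the adjustment alone gave the 3 Control values, and these SEs hold no measured spread between Control libraries. Without Control replicate 1 the difference was 6.07 for miR-31-5p and 6.59 for miR-374b-5p, each over 1.5 times larger as a fold.

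The median of these 6 differences was 5.05, and with the members that had no Control read set at their lower bound it was 4.24, against a median of 1.94 over all 181 tested miRNAs. In the limma test across those 181, 42.0% were higher with PA and 14.4% lower (76 and 26 miRNAs, adjusted p below 0.05). All 6 members passed the filter on low values through their PA libraries and were among the higher ones, which their choice had fixed, so nothing is read from that count. Scaled to library totals the split over all tested miRNAs was 95 higher and 8 lower, scaled to reads outside miR-122 it was 58 and 44, and set against the median miRNA it was 48 and 59. The median difference of all tested miRNAs was 2.91 on the first of these scales and 0.94 on the second.

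For the 4 miRNAs without a Control read, a lower bound was set by giving the 3 Control libraries 3 reads together, which on the scale of the deposited adjusted counts was 2.60. miR-31-3p was then at least 23.9-fold higher with PA, miR-350-3p at least 14.9-fold, miR-345-5p at least 10.6-fold and miR-187-3p at least 8.89-fold. In RPM of all reads the bounds were higher, at 64.7-fold for miR-31-3p, 40.8-fold for miR-350-3p, 28.5-fold for miR-345-5p and 23.6-fold for miR-187-3p. In RPM outside miR-122 they were lower, at 12-fold, 7.58-fold, 5.32-fold and 4.38-fold for the same miRNAs in that order. The choice of scale thus moved each bound by more than 1.5 times. All 4 stayed above 1, which their choice for few Control reads favours, so nothing is read from that. With a floor of 3 reads in each Control library, the bounds on the adjusted-count scale were 7.79-fold, 4.85-fold, 3.47-fold and 2.90-fold in the same order. In RPM outside miR-122 that stricter floor left 3.39-fold, 2.14-fold, 1.5-fold and 1.23-fold. Without Control replicate 1, with 3 reads over the other 2 Control libraries as the floor, the bounds on the adjusted-count scale were 17.2-fold, 10.7-fold, 7.66-fold and 6.41-fold in that order. All of these bounds use the mean of the 3 PA libraries. In RPM outside miR-122 the floor of 3 reads in each Control library averaged 65.4. Single PA libraries lay below it for miR-187-3p (53.2 in PA replicate 1) and miR-345-5p (58.0 in PA replicate 3).

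For the other two members, a few Control reads allowed a ratio of pooled reads. For miR-374b-5p it was 136-fold (95% interval 24.4 to 5394) with reads scaled by the library factors of the deposited values, 360-fold (64.5 to 14248) in RPM of all reads and 67.3-fold (12 to 2662) in RPM outside miR-122. For miR-31-5p the same ratios were 49.6-fold (13.7 to 411), 131-fold (36.1 to 1085) and 24.5-fold (6.75 to 203). The intervals are exact conditional ones and, like the Poisson and binomial intervals and the floors here, cover counting error only, since PCR copies are not independent molecules. They are wide because 1 and 2 Control reads stand below the line. For each of the 2 miRNAs the 3 scales divide the same interval by different ratios of library sizes. That these intervals overlap therefore says nothing about the scales. All of those Control reads lay in Control replicate 1. Without it only a lower bound against 3 reads over Control replicates 2 and 3 could be given, at least 33.2-fold for miR-374b-5p and at least 23.2-fold for miR-31-5p with the library factors, and at least 18.4-fold and 13.1-fold in RPM outside miR-122.

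**Figure D2:**
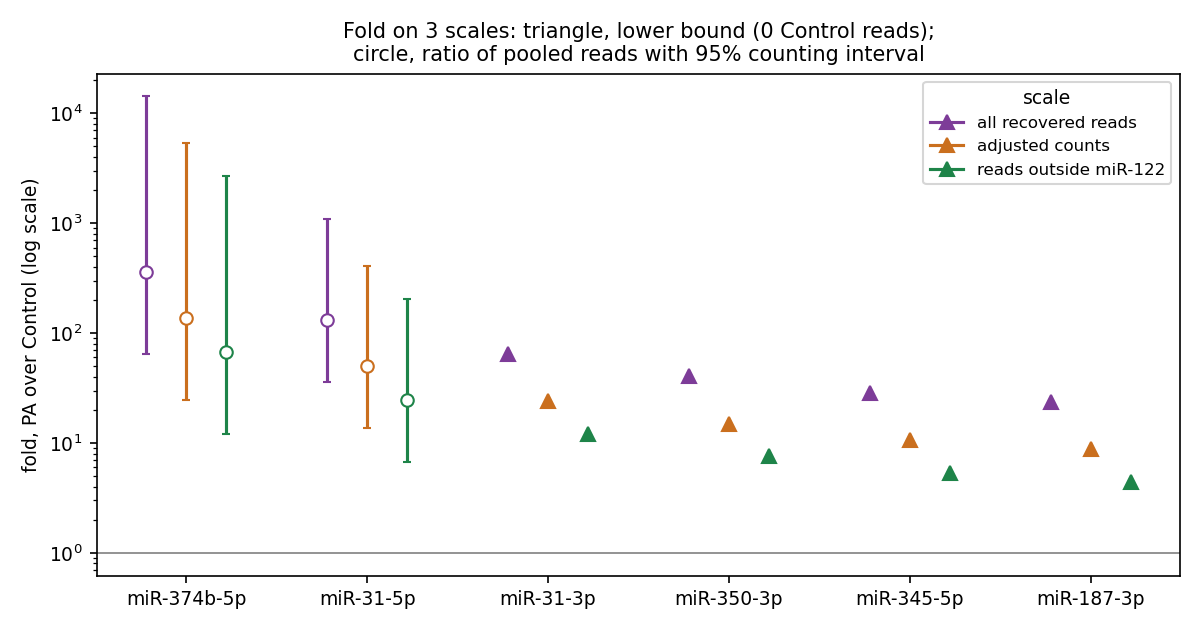
Fold, PA over Control (log axis), of each miRNA in RPM of all reads, by the deposited library factors and in RPM outside miR-122. Triangles are lower bounds against 3 reads over the Control group and open circles are ratios of pooled reads with 95% counting intervals. The order of the scales is the same for each of the 6 miRNAs. For the open circles it is fixed by the ratios of library sizes, as the reads are the same.

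The Control libraries, with few reads outside miR-122, were also set against the PA levels directly. At its mean PA share of reads outside miR-122, miR-374b-5p would have had 67.2 reads in the 3 Control libraries together, against the 1 recovered, and miR-31-5p 48.1 against 2. miR-31-3p would have had 36.1, miR-350-3p 22.8, miR-345-5p 15.9 and miR-187-3p 13.1, each against 0. The lowest of these in any 1 library were 2.37 reads for miR-187-3p and 2.88 for miR-345-5p in Control replicate 1, so absence from that library alone says little at this depth. At the mean PA share of all reads the numbers were larger, from 70.7 for miR-187-3p to 361 for miR-374b-5p. As the members were chosen for few Control reads, recovered numbers below these follow from that choice, and nothing is read from the gap.

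**Figure D3:**
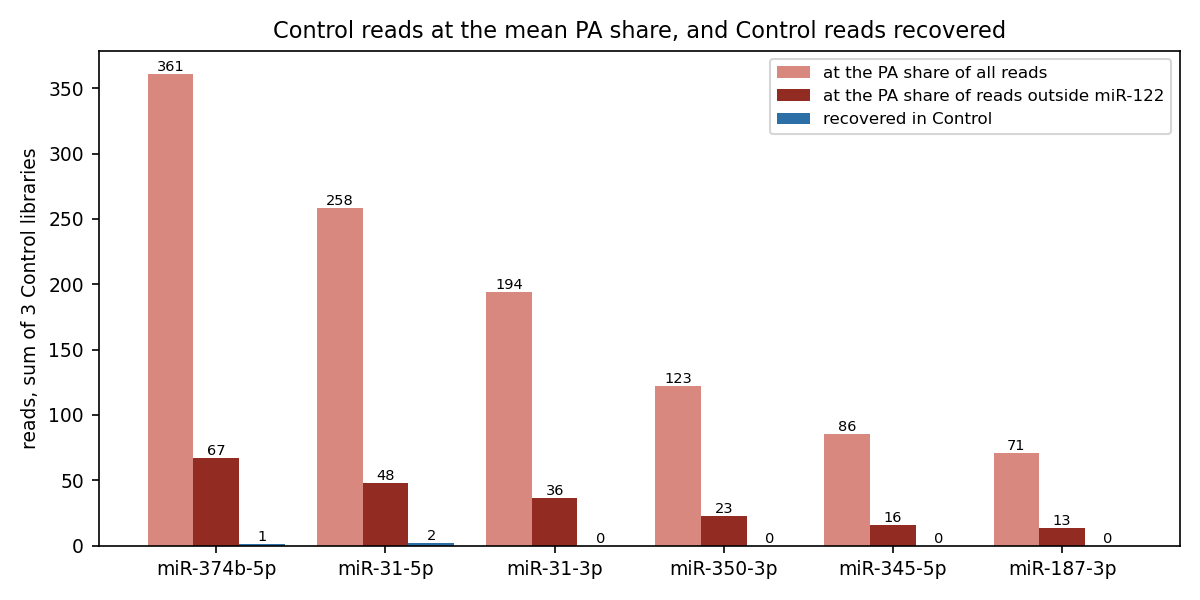
Reads that the 3 Control libraries together would hold at each miRNA's mean PA share of all reads (light red) and of reads outside miR-122 (dark red), beside the reads recovered from Control (blue). The dark red bars run from 13.1 to 67.2 reads and the blue ones from 0 to 2. The gap between them follows from the choice of members with few Control reads.

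Between the PA libraries, all 6 miRNAs had their highest RPM in replicate 2. The lowest was in replicate 3 for both arms of miR-31, for miR-345-5p and for miR-350-3p, and in replicate 1 for miR-187-3p and miR-374b-5p. The highest PA library exceeded the lowest by 2.70 times for miR-31-3p, 2.58 times for miR-350-3p, 2.55 times for miR-345-5p, 1.98 times for miR-187-3p, 1.93 times for miR-31-5p and 1.39 times for miR-374b-5p. On the deposited scale replicate 3, not replicate 2, was highest for miR-187-3p (4.86) and miR-374b-5p (7.01), so the order of PA libraries depends on the scale for these 2.

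Ordered by mean RPM with PA, miR-374b-5p came first, followed by miR-31-5p, miR-31-3p, miR-350-3p, miR-345-5p and miR-187-3p. RPM carries no length term, and the members with a sequence are 22 or 23 bases long. Every neighbouring pair in this order had overlapping ranges over the 3 libraries. Within each library, however, the higher of the pair was higher in 3 of 3 libraries for the first 4 pairs and in 2 of 3 for miR-345-5p over miR-187-3p. With 3 libraries these orders were not tested.

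Reads of a hairpin can fall on both arms. Which arm of Mir31 led did not enter the choice, as both are members. For the other hairpins the member arm passed the filter on low values through its PA reads and the partner arm did not. A lead of the member arm there may therefore follow from the choice. For Mir31 the 3p arm held 43.4% of 311 reads (95% Clopper-Pearson interval 37.8 to 49.1), 45.2% of 504 (40.8 to 49.7) and 37.2% of 183 (30.1 to 44.6) in PA replicates 1, 2 and 3, a mean of 41.9% ± 4.24 (SD, n = 3). The 5p arm was thus ahead in each PA library, with all 3 intervals below 50%. In Control the hairpin had 2 reads, both 5p, too few to compare.

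For Mir345 the 5p arm held 64.2% of 95 reads, 76.6% of 128 and 68.9% of 45 with PA, a mean of 69.9% ± 6.24 (SD, n = 3). Its 3p arm, miR-345-3p, had 34, 30 and 14 reads with PA and 0, 0 and 3 reads in Control replicates 1, 2 and 3. The only Control reads of this hairpin thus lay on the arm that is not a member, and 0 of 3 reads were 5p (interval 0 to 70.8%). The 5p arm was chosen for its few Control reads, so that share followed from the choice. Arm use was therefore not compared between the groups.

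The other hairpins gave nearly all PA reads from the member arm, which its choice favours, so nothing is read from that lead. miR-350-3p held 96.7% ± 4.24 of the Mir350 reads (SD, n = 3), with 6, 3 and 0 reads of miR-350-5p in PA replicates 1, 2 and 3 and none in Control. miR-187-5p had 0 reads with PA, against 0, 1 and 0 in Control. miR-374b-3p had no read in any library.

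**Figure D4:**
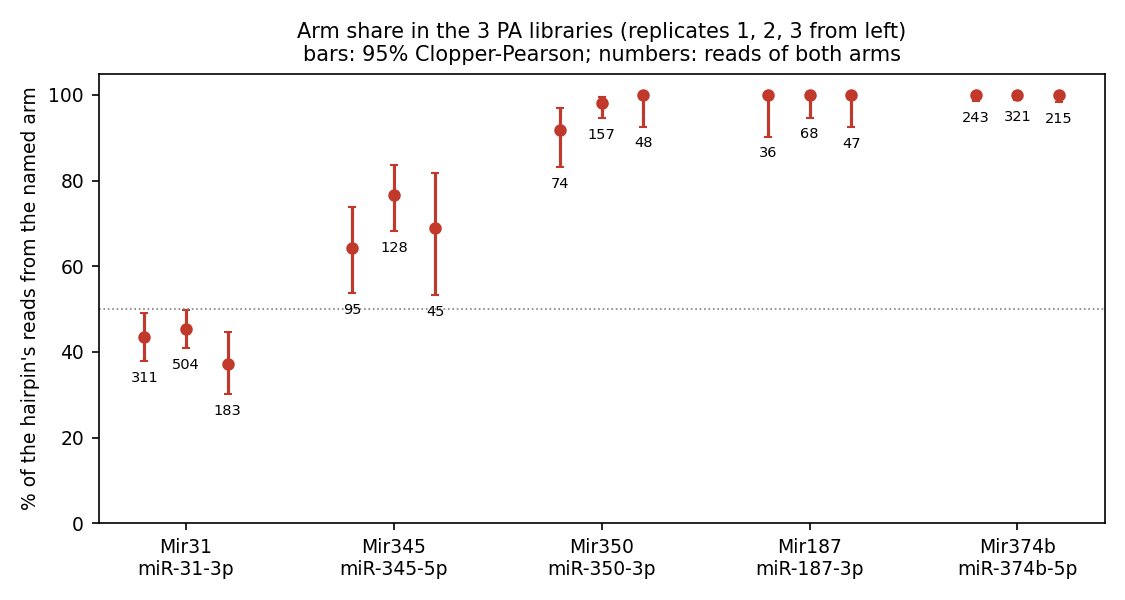
Percentage of a hairpin's reads that came from the named arm in each PA library, with 95% Clopper-Pearson intervals and the reads of both arms under each point. Mir31 lies at 37.2% to 45.2%, Mir345 at 64.2% to 76.6%, and the other 3 hairpins at 91.9% to 100%. Outside Mir31 the partner arm did not pass the filter on low values, so the lead of the member arm may follow from the choice.

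miR-374b-5p needs care for another reason. The Mir374c hairpin (chrX:103573085-103573133) lies within Mir374b on the opposite strand, and all 20 bases of miR-374c-5p are bases 3 to 22 of miR-374b-5p, as the sequences printed above show. Shortened miR-374b-5p reads could be counted as either, so the value of each is uncertain. miR-374c-5p had 7, 7 and 3 reads with PA and none in Control, and of the reads of the 2 together 97.9% ± 0.71 were counted as miR-374b-5p (SD, n = 3 PA libraries). miR-374c-3p had 1, 0 and 0 reads with PA and 1, 0 and 0 in Control.

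Mir421, the other hairpin found within 10 kb of one of the 5 members with a RefSeq match (chrX:103572921-103572996), lies in an Ftx intron as well. Its miR-421-3p had 25, 32 and 7 reads in PA replicates 1, 2 and 3 and none in Control, and miR-421-5p had none in either group. miR-421-3p thus showed reads in the PA libraries alone, as its neighbour nearly did. Of the 950 miRNAs with a read in any library, 113 had no Control read and reads in all 3 PA libraries, so nothing is read from the likeness. miR-421-3p did not pass the filter on low values and was not tested. Of the arms and neighbours outside the 6, none passed that filter.

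The pattern of few Control reads was not particular to the 6. Of the 950 miRNAs with a read in any library, 147 had at most 2 Control reads and reads in all 3 PA libraries, and 113 of those had no Control read at all. Among the 181 tested miRNAs, 27 had at most 2 Control reads, of which 6 were the members, and 17 had none, of which 4 were members. In Control replicates 2 and 3 alone, 20 had none, of which 6 were members. By mean PA level the members ranked 3, 4, 6, 11, 18 and 21 among those 27, whose levels ran from 33.6 to 478 RPM with a median of 108. By the same measure over all rows they ranked from 74 (miR-374b-5p) to 150 (miR-187-3p), and 2 of the 6 lay above the median tested miRNA (213 RPM).

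**Figure D5:**
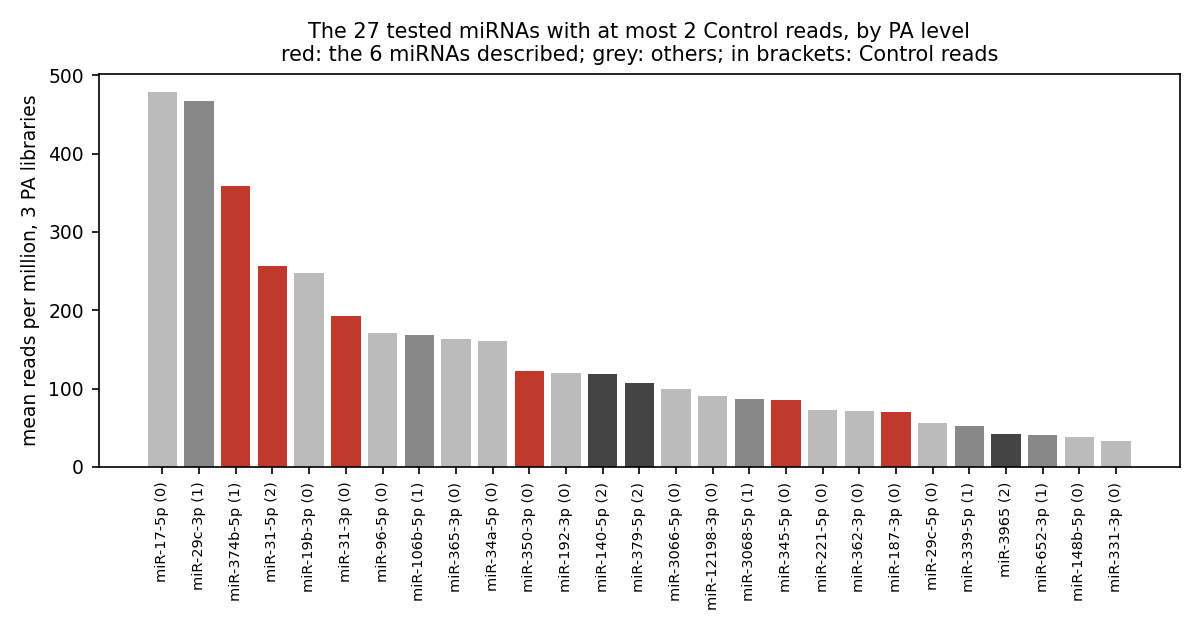
Mean RPM over the 3 PA libraries of the 27 tested miRNAs with at most 2 Control reads, in falling order, with the Control reads in brackets. The 6 miRNAs described (red) lie between 70.3 and 359 RPM and are spread over the range of 33.6 to 478 RPM.

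The miRNAs nearest to each member over the 6 deposited log2 values were found by Euclidean distance, which the library adjustment, depth and the shared lack of Control reads also shape. miR-31-3p lay nearest to miR-96-5p (0.40) and miR-34a-5p (0.45), which had 141, 186 and 56 reads and 118, 184 and 56 reads with PA. In reads all 3 were highest in PA replicate 2, but on the log2 scale of the distance miR-96-5p was highest in replicate 1 (6.13, against 6.05 in replicate 2). miR-350-3p lay nearest to miR-192-3p (0.48) and miR-3066-5p (0.60), miR-345-5p to miR-3066-5p (0.63) and miR-362-3p (0.75), and miR-187-3p to miR-221-5p (0.53) and miR-29c-5p (0.70). None of these had a Control read. miR-31-5p, with reads in 1 Control library, had no such close neighbour, at 2.34 from miR-379-5p and 2.59 from miR-330-5p. miR-374b-5p stood at 2.02 from miR-17-5p and 2.51 from miR-19b-3p.

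Since miR-31 is well known from epithelial cells, markers of those cells were set beside it. Of 10 epithelial and biliary miRNAs 4 were tested, with 2 higher (miR-182-5p and miR-96-5p) and 0 lower, too few to set apart from the 42.0% higher and 14.4% lower among all tested miRNAs. The summed level of the 10 ran from 6226 to 15808 RPM with PA and from 663 to 1816 RPM in Control, and in RPM outside miR-122 from 7146 to 17908 with PA and from 5396 to 5893 in Control. miR-429-3p and miR-205-5p had no PA read, and miR-141-3p and miR-96-5p no Control read. The part of other cell types in the difference of the 6 miRNAs was not tested. The hepatocyte list (miR-122-5p, miR-192-5p, miR-194-5p and miR-148a-3p) was present in all libraries, at 302779 to 462452 RPM with PA and 637366 to 825363 RPM in Control, with 1 of its 4 members higher (miR-192-5p) and 1 lower (miR-122-5p). Without miR-122-5p that list ran from 235916 to 407565 with PA and 227427 to 674584 in Control, in RPM outside miR-122. In the other 6 lists, of endothelial, immune, stellate, muscle, erythroid and neuronal miRNAs, 8 members were tested, with 0 higher and 3 lower (miR-146a-5p, miR-206-3p and miR-486a-5p). Their summed levels ran from 24.5 to 160 RPM with PA and 38.0 to 5699 RPM in Control for erythroid, 2.63 to 12.5 and 0 to 2750 RPM for neuronal, and 26.3 to 50.1 and 95.8 to 2362 RPM for muscle miRNAs. Stellate miRNAs ran from 463 to 599 RPM with PA and 157 to 2152 RPM in Control, immune ones from 202 to 396 and 178 to 1616 RPM, and endothelial ones from 3743 to 4957 and 865 to 3419 RPM. In RPM outside miR-122 endothelial miRNAs were lower with PA, at 4419 to 5616 against 7042 to 16401 in Control. On that scale stellate ones ran from 525 to 708 with PA and 1275 to 6983 in Control, and immune ones from 232 to 449 and 855 to 5246. Erythroid ones ran from 28.1 to 181 and 309 to 18496, muscle ones from 29.7 to 59.1 and 780 to 7664, and neuronal ones from 2.97 to 14.8 and 0 to 8924. Control replicate 1 was the highest Control library for each of these lists other than the endothelial one, where replicate 3 was.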

How the data were processed

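Trizol-extracted RNA was made into libraries with a NEBNext small RNA kit, per the labels' protocols. Bowtie2, bedtools, GRCm38 and mm10 are named, without roles, per the submitters' processing notes. How reads were assigned to miRNAs is not given in the sources used here. Although its name says raw counts, the deposited table holds log2 values. They match log2(adjusted count + 1) once counts are moved to 1 library size by negative binomial quantiles, a step that no label records and that was inferred from the values. Libraries not analysed here may have entered it.

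The dispersion (1.39) and 6 library factors (2.05, 2.86 and 1.68 in PA replicates 1, 2 and 3, and 0.322, 0.369 and 0.464 in Control) were fitted on rows of few reads, and reads were recovered by inversion with SciPy 1.17.1. Of 5827 values whose neighbouring read numbers lay at least 0.02 apart, 99.1% came out whole within 0.0015, on the log2 scale. Each row's mean had been chosen to bring these same values near whole reads. That share thus describes the fit and is not an independent check. The recovery and the test were checked on simulated data. For the recovery these were made with the same adjustment and fitted factors, so that check cannot show that the deposited values arose this way. For the test they had normal noise around row means, unlike the Control values of members without a read.

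A count-based test had been planned in case the values were whole numbers. On log2 values, limma 3.58.1 (R 4.3.3, trend, group term, two-sided, Benjamini-Hochberg at 0.05) was run on the 181 miRNAs whose adjusted count reached 10 in 3 or more libraries. Its log2 differences are on the log2(adjusted count + 1) scale, where the added 1 shrinks changes of low miRNAs. For the 4 members without a Control read the error can go either way, as the adjustment alone gave their Control values. No replicates were alike within sampling noise. Named miRNAs were the members, their other arms, seed mates and hairpins within 10 kb (searched for the 5 members with a RefSeq sequence), the 2 nearest tested miRNAs of each member, and marker lists. Members and lists were chosen with earlier results of these data known.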

Additional observations from a re-analysis of the deposited data

How the results depend on the processing

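The log2 differences of single members ran from 2.28 to 6.59 over the alternatives; their sign was fixed by the choice of members and is no sign of stability. The members' median log2 difference, 5.05 on the deposited scale, was 5.73 with library totals, 4.62 with reads outside miR-122, 3.11 relative to the median tested miRNA, 3.31 with a pseudocount of 5 and, in an alternative chosen after seeing the data, 4.24 with members lacking Control reads at their bound. It ran from 4.80 to 5.28 when single libraries were left out. Without Control replicate 1, miR-31-5p and miR-374b-5p stood at 6.07 and 6.59, against 5.19 and 5.97 with it, and the bounds without that library, also chosen after seeing the data, are given with the folds. The count of higher miRNAs, 76, was 48 relative to the median and 50 with a filter at an adjusted count of 50, where 2 members remained. The count of lower miRNAs, 26, was 8 with library totals, 59 relative to the median, 44 with reads outside miR-122 and 60 with no filter. Leaving out single libraries gave 63 to 85 higher and 20 to 32 lower miRNAs. The miR-31-3p share of 41.9% was 42.0% from adjusted counts and 40.3% to 44.3% without single PA libraries. With the replicate block 83 were higher and 28 lower. Same-numbered libraries deviated together weakly (correlations 0.21, 0.15 and 0.04), so the numbers were not taken to pair the libraries. The cause of these shifts was not tested. For no other arm, seed mate or neighbour could leaving out a library be run, as none was tested. The depth of Control limits the bounds, since 3 reads there are 37.1 to 102 RPM outside miR-122.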
